A study of Mus musculus with 2 samples.

Results

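Committed erythroid progenitors without Gata2 were red cell precursors of the mouse bone marrow that carried Klf1 and early red cell genes, had no detected Gata2, and had not yet built up the anion exchanger Slc4a1. They were chosen barcode by barcode from counts of captured transcripts, each marked by its own molecular identifier (UMI). Barcodes were kept from 10000 UMIs and 500 genes upwards, where mitochondrially encoded UMIs were 10% or less. Members had at least 2 Klf1 UMIs, 0 Gata2 UMIs and at least 3 UMIs of Car1, Ermap and Rhd together. In UMIs per 10000 of the cell (CP10K), they were also under 2 for Slc4a1, under 2 for the platelet gene Pf4, under 5 for the basophil gene Mcpt8 and under 20 for the granule genes Elane and Prtn3 together. The rule found 1631 members among 6944 kept barcodes of the Nat10 cKO library and 1044 among 7629 of the WT library, 2675 of 14573 in all.

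The series profiled lineage-negative bone marrow cells of C57BL/6 mice with a conditional knockout of Nat10 (Nat10 cKO) and of wild-type (WT) C57BL/6 mice, to ask what Nat10 and the RNA modification it makes do in haematopoietic stem cells. Cells were enriched with biotin-labelled lineage antibodies and a depletion kit, and 3′ tags were counted in 1 droplet library per genotype. The series text names 5 mice without tying cells to them, and the deleted part of Nat10 and the driver of the deletion are not given in the sources used here. With 1 library per genotype no difference below has a replicate check or a test, cells were not used as replicates, and every interval is a 95% interval that covers counting error only. The members held 69197752 UMIs in the cKO library and 48056182 in the WT library. Their median depth was 41282 UMIs and 6620 genes per cKO cell, against 45002 UMIs and 6886 genes per WT cell.

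Erythroid commitment runs from progenitors that share Gata2 and Kit with stem cells to cells in which Gata1 takes over from Gata2 at many of the same regulatory sites. Klf1, a zinc finger transcription factor restricted to the erythroid lineage, then works with Gata1 to switch on the genes for heme synthesis, iron uptake, globin and the red cell membrane. Nat10 makes N4-acetylcytidine by acetylating cytidines of 18S rRNA and, with its adaptor Thumpd1, in some transfer RNAs.

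The proximal promoters of 5 marker genes of these cells are shown because each holds a single GATA motif, the letters bound by Gata1 and Gata2. They are Klf1 itself, Ermap (an erythroid membrane protein of the Scianna blood group), Rhd (the mouse Rh blood group protein), Epor (the erythropoietin receptor) and Rhag (the Rh-associated glycoprotein). Sequences are RefSeq promoters of build GRCm38.p6, read 5′ to 3′ on the strand of the gene, and capitals mark GATAA or its reverse complement TTATC. Windows end at most 30 bases from the motif on either side.
Klf1, chr8:84901872-84901936, plus strand: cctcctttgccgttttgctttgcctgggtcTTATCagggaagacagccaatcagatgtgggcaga
Ermap, chr4:119190028-119190092, minus strand: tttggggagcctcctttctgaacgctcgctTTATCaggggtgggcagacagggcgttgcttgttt
Rhd, chr4:134864464-134864528, plus strand: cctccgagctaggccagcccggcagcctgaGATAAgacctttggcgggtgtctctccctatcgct
Epor, chr9:21963596-21963660, minus strand: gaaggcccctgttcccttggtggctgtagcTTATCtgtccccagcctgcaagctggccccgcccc
Rhag, chr17:40811088-40811148, plus strand: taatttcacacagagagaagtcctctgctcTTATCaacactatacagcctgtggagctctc
The first base of the motif lay 80 bases upstream of the annotated start in Klf1, 67 in Ermap, 42 in Rhd, 54 in Epor and 31 in Rhag. Searched on both strands in the 250 bases upstream of each start, GATAA stood in 8 of 18 promoters (44.4%) of the 12 marker genes matched in the table, against 22.6% of all 32851 promoters. Overlapping promoters of Sphk1 were counted separately among the 8. In other erythroid lists GATAA stood in 7 of 34 promoters of transcription factors (20.6%), 4 of 17 of heme synthesis (23.5%) and 7 of 24 of membrane genes (29.2%). The motif CCACACCC, which Klf1 can bind, stood in 0 of the 18 marker promoters and in 3.20% of all promoters. Car1, Car2 and Cldn13 were not matched. A match is a description of these letters and shows no binding.

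Near the limits for Gata2, Slc4a1, Klf1 and the red cell sum, barcodes were counted on either side. With every other limit met, 618 cKO and 406 WT barcodes had exactly 1 Gata2 UMI and so lay just outside. Just inside the Slc4a1 limit, from 1.5 to 2 CP10K, lay 38 cKO and 49 WT members, and just outside, from 2 to 2.5 CP10K, 35 and 50 barcodes. Klf1 stood at 2 UMIs in 58 cKO and 34 WT members, with 73 and 69 barcodes just outside at 1 UMI. Of the red cell sum, 5 cKO and 0 WT members had exactly 3 UMIs. Applied in turn, the Klf1 limit left 3902 of 6944 cKO and 3259 of 7629 WT barcodes, the absence of Gata2 then left 2273 and 2114, and the Slc4a1 limit took 2237 and 2084 down to 1699 and 1108.

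The label was set beside 15 marker genes of committed erythroid progenitors, 4 of which the rule had used and which are left out of the sums. The markers were chosen with earlier results of these data known, so their sums are a description and no test of the label. The other 11 summed to 5560 CPM (the counts of each group of cells scaled to an equal total) in cKO members and 5542 CPM in WT members, against 617 and 601 CPM in the kept barcodes outside the 3 erythroid groups. They also summed to 4403 and 4371 CPM in the cKO and WT erythroid cells with Gata2, and to 7719 and 7312 CPM in those at or over the Slc4a1 limit, so they mark the erythroid lineage and do not set the members apart from these neighbours. Car2, the abundant red cell carbonic anhydrase, had 2514 CPM in cKO members and 2594 CPM in WT members. Blvrb, which reduces biliverdin and flavins, had 1195 CPM in cKO and 955 CPM in WT members. Cldn13, a claudin of mouse erythroid cells, had 207 and 201 CPM in cKO and WT members. Gata1 had 134 CPM in cKO and 131 CPM in WT members, and Epor 68.4 and 63.1 CPM. All 15 markers were detected in both libraries, and an erythroid name does not go against the data. The genes the rule used are given as a description: Klf1 had 234 CPM in cKO and 215 CPM in WT members, Ermap 507 and 533 CPM, Rhd 305 and 288 CPM, and Car1, another carbonic anhydrase, 996 and 1339 CPM.

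Markers of other lineages were low in the members and, for several lists, lower in the cKO library. The rule capped Elane, Prtn3, Pf4 and Mcpt8, so these are left out of the sums. The other 9 markers of granulocyte-monocyte progenitors and neutrophils summed to 166 CPM in cKO and 224 CPM in WT members, against 6688 and 7548 CPM in the kept barcodes outside the erythroid groups. The 7 monocyte markers summed to 55.0 CPM in cKO and 134 CPM in WT members, and the 8 macrophage markers to 2.56 and 13.3 CPM, with Cd5l at 0 in cKO members. Plasma cell markers ran the other way, with 48.8 CPM in cKO and 25.7 CPM in WT members. The other 7 megakaryocyte markers summed to 20.3 and 24.4 CPM in cKO and WT members, and the 8 stem cell markers to 21.2 and 27.3 CPM. Stromal and endothelial markers summed to 26.9 CPM in cKO and 108 CPM in WT members. A single WT cell held 4180 of those 5193 WT UMIs, and without that cell the WT sum was 21.1 CPM. Mitochondrially encoded UMIs made up a median of 1.68% per cKO and 1.81% per WT member. A doublet caller marked 40 cKO members (2.45%) and 36 WT members (3.45%). The libraries shared 67 barcode sequences, and 0 of them were members in both.

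Committed progenitors made up a larger share of the cKO library than of the WT library. They were 23.5% of kept cKO barcodes (22.5% to 24.5%, exact binomial interval) and 13.7% of kept WT barcodes (12.9% to 14.5%), a ratio of 1.72 (1.59 to 1.86). Erythroid cells with Gata2 had at least 1 Gata2 UMI and no limit on Car1, Ermap and Rhd. Their other limits were the same, and they were 21.5% of kept cKO and 12.5% of kept WT barcodes, a ratio of 1.73 (1.59 to 1.88). Klf1-containing cells at or over the Slc4a1 limit, called Slc4a1-high erythroid cells here, were 8.45% of kept cKO and 13.6% of kept WT barcodes, a ratio of 0.62 (0.56 to 0.69). Among kept barcodes with at least 2 Klf1 UMIs only, members were 41.8% in the cKO library and 32.0% in the WT library, a ratio of 1.30 (1.21 to 1.41). Applying the rule after thinning every barcode to 10000 UMIs gave 22.1% of cKO and 12.3% of WT barcodes, a ratio of 1.79 (1.65 to 1.95). Under 10000 UMIs lay 6485 cKO and 8189 WT barcodes, and the ratio of the members' shares was 1.69 with barcodes kept from 5000 UMIs and 1.64 from 20000 UMIs. The cells had been depleted of mature lineages, and the part of that step in these shares was not tested.

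**Figure D1:**
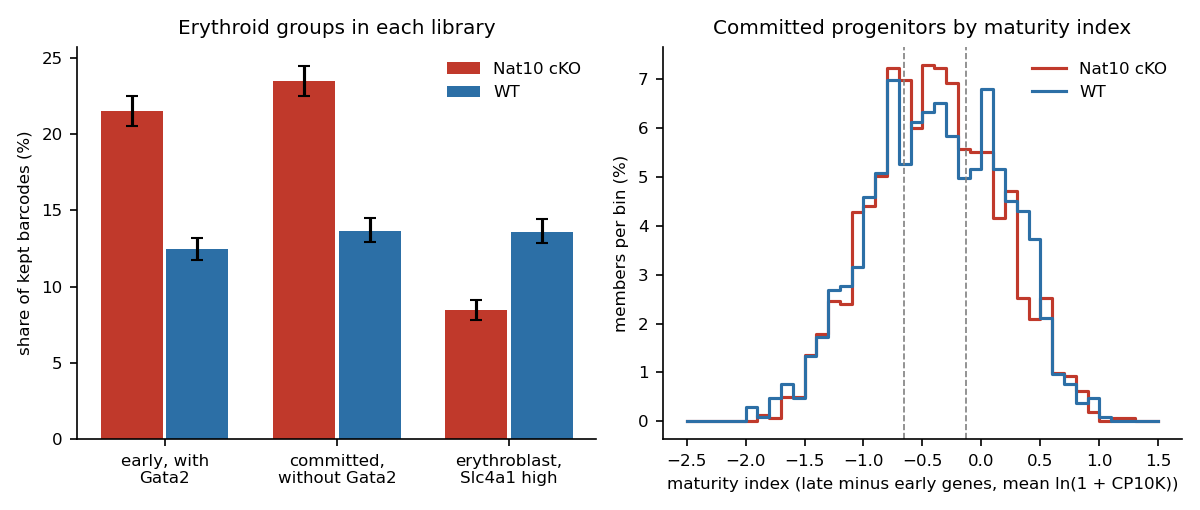
Left, share of kept barcodes (%, bars with exact 95% binomial intervals) in 3 erythroid groups of the Nat10 cKO and WT libraries: the cKO share is larger in the cells with Gata2 and in the committed progenitors (23.5% against 13.7%) and smaller in the Slc4a1-high cells. Right, distribution of the committed progenitors of each library over a maturity index (mean natural log of 1 + CP10K of late genes minus that of early genes), with dashed lines at the limits of the 3 ranges: the cKO and WT outlines cover the same span.

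The committed progenitors were set beside their neighbours on the erythroid path, the cells with Gata2 before them and the Slc4a1-high cells after them. The rule used Gata2 and Slc4a1 to draw these borders and asked for Car1, Ermap and Rhd UMIs in the committed cells only. The ratios are therefore a description and test nothing. Against the cells with Gata2, 37 of 9357 genes were at least 1 log2 unit higher in both libraries (0.395%) and 172 at least 1 lower (1.84%). Against the Slc4a1-high cells, 740 of 9177 genes were at least 1 higher (8.06%) and 334 at least 1 lower (3.64%).

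Among genes that averaged 20 CPM or more, the highest committed-over-Gata2 ratio belonged to Sox6, a transcription factor of red cell maturation and of the silencing of embryonic globin. Sox6 had 181 CPM in committed cKO and 324 CPM in committed WT cells, against 54.1 and 104 CPM in the cells with Gata2, log2 ratios of 1.74 in the cKO and 1.64 in the WT library. Dmtn (dematin) and Epb42, which join the membrane to its actin and ankyrin skeleton, had 1.58 and 1.22 in the cKO and 1.49 and 1.18 in the WT library. E2f2, a cell cycle factor of erythroid maturation, had ratios of 1.19 in cKO and 1.25 in WT. The sialyltransferase St3gal6 had 1.16 and 1.13, and the microsomal glutathione transferase Mgst3 had 1.12 and 1.11. Sec14l2, Pkhd1l1, Btnl10 and Trim2 completed the 10 highest, with ratios between 1.12 and 1.38 in the 2 libraries.

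Among the lowest committed-over-Gata2 ratios at that level was that of Meis1, a homeobox factor of stem cell self-renewal. It had 4.88 CPM in committed cKO and 7.28 CPM in committed WT cells, against 29.9 and 59.2 CPM in the cells with Gata2, log2 ratios of −2.61 and −3.02. Angpt1, the ligand angiopoietin 1, had ratios of −2.20 in cKO and −2.37 in WT. Ikzf2, an Ikaros family factor, had −2.13 and −2.44, and the lipid carrier Apoe had −2.28 and −2.51. Ifitm1, Muc13, Slc22a3, Ctla2a and Prkch had ratios between −1.98 and −2.98. The other end of the path differed in kind. Against the Slc4a1-high cells, committed cells had more Kit, the stem cell factor receptor, with 89.7 CPM in committed cKO and 86.7 CPM in committed WT cells against 12.9 and 14.3 CPM in Slc4a1-high cells. Srm, which makes spermidine, had log2 ratios of 2.41 and 2.35 over Slc4a1-high cells in cKO and WT, and the fatty acid elongase Elovl6 had 2.69 and 2.44. Slc6a9, a glycine transporter that feeds heme synthesis, had −3.79 and −3.27, and Tmod1, a cap of the actin filaments of the membrane skeleton, had −3.18 and −2.99.

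Over the gene lists, red cell building programmes were already higher in the committed cells than in the cells with Gata2. In both libraries 24 of 26 membrane and blood group genes, 15 of 17 heme genes, 13 of 17 iron genes and 4 of 4 globin genes were higher, against a background of 39.0% of 9220 genes. The median log2 ratio over the cells with Gata2 was 0.60 in cKO and 0.56 in WT for the membrane list. For heme synthesis it was 0.54 and 0.56 in cKO and WT, and for the 4 adult globin genes 1.53 and 1.17. The S phase list was higher in both libraries in 40 of 40 genes, with medians of 0.32 in cKO and 0.37 in WT. Stem and early progenitor genes had medians of −0.79 and −0.92, with 9 of 10 lower in both libraries against a background of 46.5%. Ribosome biogenesis genes were lower in 37 of 42, with medians of −0.16 in cKO and −0.15 in WT, and immediate early genes in 14 of 15, with −0.60 and −0.72.

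**Figure D2:**
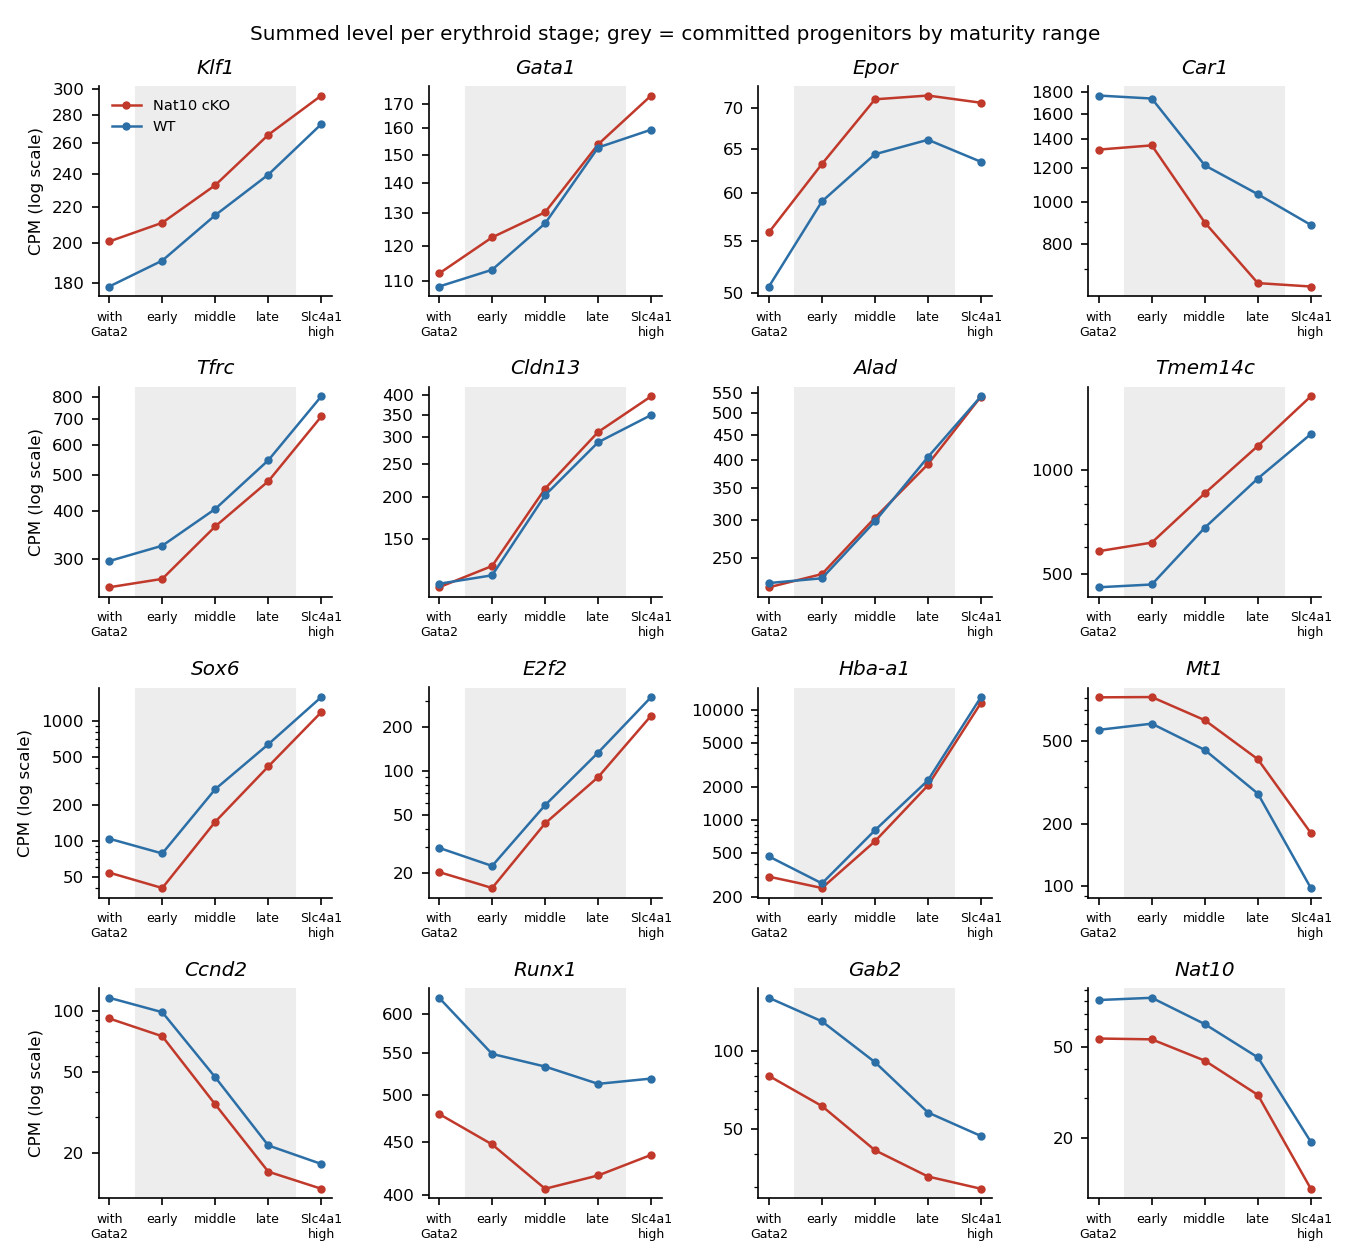
Summed level in CPM (log axis) of 16 genes in the cells with Gata2, in the early, middle and late maturity ranges of the committed progenitors (grey) and in the Slc4a1-high cells, 1 point per library and stage, Nat10 cKO and WT. Klf1, Cldn13, Alad, Sox6, E2f2 and Hba-a1 are higher in each later committed range in both libraries while Mt1, Ccnd2, Gab2, Nat10 and Car1 are lower, and the cKO line lies below the WT line at every stage for Sox6, E2f2, Gab2, Runx1, Car1 and Nat10.

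Within the committed progenitors, a maturity index graded each cell. It was the mean level of 6 late genes (among them Alas2, Epb42, Hemgn and Slc25a37) minus that of 6 early genes (Kit, Cd34, Myb, Cdk6, Ikzf1, Zfp36l2) after thinning to 10000 UMIs, divided into 3 ranges of equal size over all members. These are ranges of a score and not cell types, and 218 cKO and 113 WT cells lay within 0.05 of a limit. The late range held 31.6% of cKO members (29.4% to 34.0%) and 36.02% of WT members (33.1% to 39.0%), a ratio of 0.88 (0.77 to 1.01). The middle range held 34.9% and 30.8% and the early range 33.4% and 33.1% of cKO and WT members. The interval of the late-range ratio, of counting error only, includes 1.

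Genes outside the index also differed between its ranges, in both libraries. The 4 adult haemoglobin genes together had medians of 4, 11 and 43 thinned UMIs per cKO cell in the early, middle and late ranges, and of 5, 13 and 48 per WT cell. Cldn13 averaged 1.19, 2.14 and 3.01 thinned UMIs per cKO cell and 1.19, 2.04 and 3.03 per WT cell. Tfrc, the transferrin receptor that brings iron into the cell, averaged 2.596, 3.75 and 4.96 in cKO and 3.36, 4.003 and 5.43 in WT cells. The S phase list summed to a median of 54, 68 and 86 UMIs in cKO and 60, 73 and 92 UMIs in WT cells, and the G2/M list to 97, 104 and 122 in cKO and 92.5, 107 and 129 in WT cells. Haemoglobin, Cldn13, Tfrc and both cell cycle lists were thus higher in each later range. Car1 went the other way, with means of 14.1, 8.95 and 6.47 in cKO and 17.6, 12.6 and 10.6 in WT cells. Mt1, the metal-binding metallothionein 1, was also lower in each later range, with 8.18, 6.26 and 4.04 in cKO and 5.99, 4.76 and 2.70 in WT cells.

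Nat10 itself was lower in the cKO members but not absent. It had 44.0 CPM in cKO and 64.1 CPM in WT members, a log2 ratio of −0.54 (−0.61 to −0.47). The ratio was −0.61 in the early, −0.54 in the middle and −0.55 in the late range of the index, −0.56 in the cells with Gata2 and −0.68 in the Slc4a1-high cells. The labels do not say which part of the gene was deleted, so 3′ tags may not check the knockout. Thumpd1 had 56.5 CPM in cKO and 54.6 CPM in WT members, a log2 ratio of 0.05. Of sex-linked genes, Xist stood at 590 CPM in cKO and 739 CPM in WT members, Ddx3y at 3.82 and 3.04 CPM, and Eif2s3y at 0 and 0.10 CPM.

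Between genotypes, most genes of the committed progenitors differed little, and the spread was tilted to the lower side. Over the 9220 genes that averaged 5 CPM or more, the median log2 ratio of cKO over WT was −0.08. At least 0.5 higher were 54 genes (0.586%) and at least 0.5 lower were 289 genes (3.13%). Scaling by TMM, which sets most genes to no change, moved every ratio up by 0.12 and gave 186 genes higher and 168 lower, and median-of-ratios scaling moved them by 0.11 and gave 175 and 173. Any ratio between −0.11 and 0 below therefore turns positive under both scalings, and lists are read against the median of all genes, above and below which 50.0% of genes lay.

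The 12 highest ratios among genes that averaged 20 CPM or more were all under 1. Ubb, which encodes polyubiquitin, had 401 CPM in cKO and 252 CPM in WT members, a log2 ratio of 0.67 (0.64 to 0.70), with 0.60 in the cells with Gata2 and 0.61 in the Slc4a1-high cells. Polr2j, a subunit of RNA polymerase II, had 222 CPM in cKO and 155 CPM in WT members, a ratio of 0.52 (0.48 to 0.56). The chloride intracellular channel Clic1 had 167 and 113 CPM in cKO and WT, a ratio of 0.56, and the spliceosome component Txnl4a had 137 and 92.1 CPM, a ratio of 0.57. Pcdh7, a protocadherin, had the highest ratio at this level, 0.78 (0.66 to 0.90), from 28.7 CPM in cKO and 16.6 CPM in WT members. Pusl1, of the pseudouridine synthase family, had 0.72 from 26.3 and 15.9 CPM. Ppm1e, a PP2C family phosphatase, had 0.68, Ydjc 0.63, Emc4 of the endoplasmic reticulum membrane complex 0.57, and the dolichol glucosyltransferase Alg5 and Mcrip2 0.55 each. Rps10-ps2, at 0.60, is a pseudogene copy of a ribosomal protein gene, so its reads may belong to other copies. All 12 had ratios above 0 in the cells with Gata2 and in the Slc4a1-high cells as well. The same held in the kept barcodes outside the 3 erythroid groups, from 0.25 for Ppm1e to 0.83 for Pusl1, so these differences were not particular to the members.

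The 12 lowest ratios at the same level are given in 3 groups. The first holds Rn18s-rs5 and the genes of the 12 whose UMIs correlated most with its own. Rn18s-rs5, an 18S rRNA repeat, had 9697 CPM in cKO and 20214 CPM in WT members, a log2 ratio of −1.06 (−1.064 to −1.055). Camk1d, a calcium/calmodulin-dependent kinase, had 416 and 886 CPM in cKO and WT, a ratio of −1.09. Mir6236, annotated as a microRNA gene, had −0.96 from 250 and 488 CPM, and Lars2, the mitochondrial leucyl-tRNA synthetase, had −0.95 from 220 and 424 CPM. In the kept barcodes outside the erythroid groups Rn18s-rs5 had −0.95, Camk1d −0.99, Mir6236 −0.86 and Lars2 −0.98. Across the member cells of a library, thinned UMIs of Rn18s-rs5 correlated with those of Mir6236 (Pearson's r of 0.73 over 1631 cKO and 0.69 over 1044 WT cells), Camk1d (0.59 and 0.63) and Lars2 (0.46 and 0.48). The cells of a library share its depth and its free RNA, and these values are a description. For Runx1, of like CPM in the cKO library, r was 0.11 in cKO and −0.0044 in WT cells.

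The second group held other genes, among them signalling and interferon genes. Gab2, an adaptor of cytokine receptor signalling, had 46.5 CPM in cKO and 93.8 CPM in WT members, a ratio of −1.01 (−1.08 to −0.95). The growth factor gene Pdgfd had −1.05 from 33.3 and 68.7 CPM, Fry −0.94, the kinase Hipk2 −0.91 from 93.0 and 174 CPM, and the interferon-induced Oasl1 −0.87. In the kept barcodes outside the erythroid groups Gab2 had −0.57, Pdgfd −0.43, Fry −0.64, Hipk2 −0.43 and Oasl1 −0.74. The third group were markers of other cells. Ly6c2, a monocyte surface antigen, had 15.6 CPM in cKO and 41.9 CPM in WT members, against 463 and 953 CPM in the other kept barcodes, and its ratio in the members was −1.42. F13a1, another monocyte marker, had a ratio of −1.12, or −0.52 without called doublets, where that of Ly6c2 was −1.15, and the monocyte list as a whole summed to 55.0 CPM in cKO and 134 CPM in WT members. The part of other cells' free RNA in these ratios was not tested. Col1a1, a bone matrix collagen, had the lowest ratio of the 12, −2.67, from 5.45 CPM in cKO and 34.6 CPM in WT members, but 1508 of its 1664 WT UMIs (90.6%) came from a single cell of 66292 UMIs. Without the highest cell in each library its ratio was 0.73. The same WT cell held 1095 UMIs of Col1a2 and 1577 of the osteocalcin gene Bglap.

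**Figure D3:**
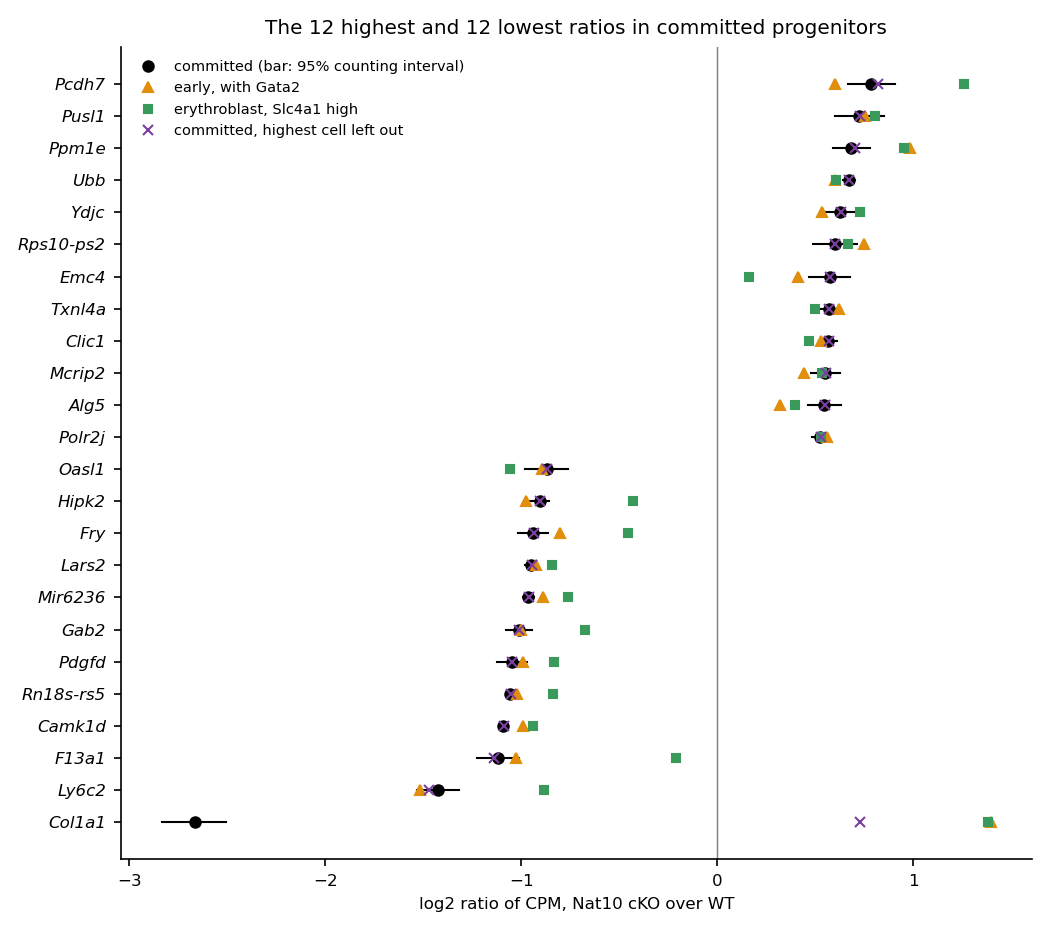
The 12 highest and 12 lowest log2 ratios of CPM, Nat10 cKO over WT, for genes that averaged 20 CPM or more in committed progenitors (points with 95% counting intervals), with the same genes in the cells with Gata2 (triangles), in the Slc4a1-high cells (squares) and in the members without the cell with the most UMIs of that gene (crosses). The other stages lie on the same side of 0 as the committed progenitors for every gene but Col1a1, whose cross is at 0.73 instead of −2.67.

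Of 24 erythroid transcription factors, all of them measured, 9 had ratios above and 15 below the median of all genes, with a list median of −0.12. Klf1, which the rule used, had 0.12. Gata1 had a ratio of 0.04, its partner Zfpm1 (FOG1) 0.02 from 316 CPM in cKO and 311 CPM in WT, the adaptor Lmo2 0.04 from 276 and 269 CPM, and the histone demethylase Kdm1a 0.04. Gfi1b, a repressor that acts beside Kdm1a, had −0.01, and Myb, which keeps progenitors dividing, had −0.04. Past −0.5 were 2 of the 24, Sox6 and E2f2, against a background of 3.13%. Sox6 had 181 CPM in cKO and 324 CPM in WT members, a ratio of −0.84 (−0.88 to −0.81), and E2f2 had 46.3 and 70.4 CPM, a ratio of −0.60. Both were lower in each range of the index, Sox6 by ratios of −0.96, −0.90 and −0.62 in the early, middle and late ranges. Tal1, the bHLH factor of the erythroid complex, had −0.36 from 122 CPM in cKO and 157 CPM in WT, Nfe2 −0.35, and Runx1, a factor of the stem cell programme, −0.33 from 424 and 532 CPM.

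In the list of erythropoietin receptor and growth signalling genes, which also holds other receptors such as Kit, the erythropoietin receptor had the highest ratio and the adaptor Gab2 the lowest. Epor had 68.4 CPM in cKO and 63.1 CPM in WT members, a ratio of 0.12, the highest of 17 members measured of 24 listed. Its kinase Jak2 had 85.6 and 99.7 CPM in cKO and WT, a ratio of −0.22, and the transcription factors Stat5a and Stat5b −0.19 and −0.26. The adaptors Gab2 (−1.01) and Gab1 (−0.60, 72.3 CPM in cKO and 110 CPM in WT) and the survival kinase Pim1 (−0.65, 21.8 and 34.1 CPM) were the 3 of 17 members past −0.5, against a background of 3.13%. Kit had 0.05, and the phosphatase Ptpn6, which damps the receptor, 0.06. The list's median was −0.19, with 6 genes above and 11 below the median of all genes. The feedback inhibitors Socs2, Socs3 and Cish lay under 5 CPM in both libraries.

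Heme synthesis genes as a list lay at the median of all genes, at −0.06 with 9 above and 8 below of 17, and TMM scaling put the list at 0.06. Along the pathway, Alas2, the erythroid first enzyme, was still low with 7.28 CPM in cKO and 9.51 CPM in WT members, a ratio of −0.38 (−0.57 to −0.20). Alad had 301 CPM in cKO and 309 CPM in WT, a ratio of −0.04. Uros had −0.04, Urod 0.10, Cpox −0.18 from 488 and 555 CPM, and Ppox −0.06. Fech, which inserts the iron, had 153 CPM in cKO and 181 CPM in WT, a ratio of −0.24. The carriers went both ways. Tmem14c, which moves the porphyrin precursor into the mitochondrial matrix, had 857 CPM in cKO and 695 CPM in WT members, a ratio of 0.30 (0.28 to 0.32). Slc25a38, the mitochondrial glycine carrier, had 0.14, while the mitochondrial iron importer Slc25a37 (mitoferrin 1) had −0.46 from 48.1 and 65.9 CPM, and its partner Abcb10 −0.35 from 139 and 177 CPM.

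Iron genes lay on both sides of the median of all genes. The storage subunits stood above it, Ftl1 with 1297 CPM in cKO and 1057 CPM in WT members, a ratio of 0.30, and Fth1 with 4098 and 3643 CPM, a ratio of 0.17. Below it stood Tfrc, Tfr2, Slc11a2, Slc40a1 and Ncoa4. Tfrc had 360 CPM in cKO and 424 CPM in WT, a ratio of −0.23 (−0.26 to −0.21), the second transferrin receptor Tfr2 −0.23, the iron transporter Slc11a2 −0.20, the exporter Slc40a1 (ferroportin) −0.22, and Ncoa4, the receptor that sends ferritin to breakdown, −0.26. Iscu, the scaffold for iron-sulphur clusters, had 0.17 and Glrx5 0.04. Over the list 9 of 17 were above and 8 below the median of all genes, with a median of −0.07 that TMM scaling put at 0.05.

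Of the 4 adult globin genes, 3 were below the median of all genes and Hba-a2 above it. Hbb-bt had 481 CPM in cKO and 652 CPM in WT, a ratio of −0.44, Hba-a1 had 889 and 1113 CPM, a ratio of −0.32, Hbb-bs 668 and 759 CPM, a ratio of −0.18, and Hba-a2 241 and 249 CPM, a ratio of −0.05 that TMM scaling put at 0.07. These genes lie in near-identical pairs, so reads may be divided between the copies. The median of the 4 was −0.25, with −0.08, −0.30 and −0.06 in the early, middle and late ranges and −0.62 in the cells with Gata2. In the kept barcodes outside the erythroid groups all 4 were lower in cKO too. There Hbb-bs had 242 CPM in cKO and 369 CPM in WT, Hbb-bt 132 and 196, Hba-a1 222 and 335, and Hba-a2 73.6 and 95.3. The cells with Gata2 had 235 and 363 CPM of Hbb-bs and 304 and 465 CPM of Hba-a1. The part of free RNA in the globin ratios was not tested. With the cKO ranges weighted to the WT shares the median was −0.11.

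Of 26 membrane and blood group genes, 6 were above and 20 below the median of all genes. The list's median was −0.29, with −0.27, −0.26 and −0.16 in the 3 ranges of the index. It was −0.31 in the cells with Gata2 and −0.21 in the Slc4a1-high cells. Among the members' skeleton genes, Sptb (beta spectrin) had 234 CPM in cKO and 308 CPM in WT, a ratio of −0.40. Ank1 (ankyrin) had 424 and 520 CPM, a ratio of −0.29, and Epb41, which ties spectrin to actin, 288 and 360 CPM, a ratio of −0.32. Cd24a, a surface glycoprotein, had 519 CPM in cKO and 701 CPM in WT, a ratio of −0.43, and Dmtn had −0.43. Aqp1, the water channel of the Colton blood group, had −0.31. Rhag had −0.12 and Gypc −0.06, and Cd47, the signal that holds off macrophages, −0.01. Only Icam4, an adhesion protein of the LW blood group, and Cldn13 had ratios above 0, at 0.31 and 0.04.

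Cell cycle genes had ratios on both sides of the median of all genes. The S phase list had a median of −0.10, with 16 of 40 above and 24 below the median of all genes, and its sign turned under TMM (0.01) and median-of-ratios scaling (0.01). Dtl, which targets licensing factors for breakdown, had the lowest S phase ratio, −0.49 from 197 CPM in cKO and 276 CPM in WT. Pola1, a DNA polymerase, had −0.40, and the helicase subunit Mcm2 −0.37 from 142 and 183 CPM. Tyms, which makes thymidylate, had the highest, 0.20. The G2/M list had a median of −0.02, with 34 of 52 above and 18 below, Tubb4b at 0.31 and Cks1b at 0.23 being the highest and Lbr at −0.29 the lowest. Among the cyclins, Ccnd3, the D cyclin of erythroid division, had 163 CPM in cKO and 203 CPM in WT, a ratio of −0.31, and Ccnd2 44.4 and 56.6 CPM, a ratio of −0.35. Ccnd1 had 9.60 CPM in cKO and 3.72 CPM in WT, a ratio of 1.36 (1.12 to 1.61). After thinning, 6.81% of cKO and 2.97% of WT members had a Ccnd1 UMI. In the kept barcodes outside the erythroid groups Ccnd1 had 41.2 CPM in cKO and 20.7 CPM in WT, a ratio of 0.99. Its ratio was 1.26 in the cells with Gata2 and 0.84 in the Slc4a1-high cells. The part of other cells' free RNA in the Ccnd1 ratio was not tested. Replication-dependent histone genes had a median of 0.11, with 40 of 46 above, led by the core histone H2ac8 (646 and 459 CPM in cKO and WT) and the linker histone H1f5 (1646 and 1173 CPM), both at 0.49.

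Genes of mitochondrial and ribosomal supply stood higher. Of 46 mitochondrial ribosomal protein genes 45 were above the median of all genes, with a list median of 0.26, and Mrps25 (0.40, 99.1 CPM in cKO and 75.2 CPM in WT) and Mrps11 (0.38) were the highest. Of 57 nuclear respiratory chain genes 54 were above, with a median of 0.17, led by Sdhd of complex II (0.39, 141 and 107 CPM) and the ATP synthase subunit Atp5d (0.36). The mitochondrial ribosome median was 0.28 in the cells with Gata2 and 0.25 in the Slc4a1-high cells, and the respiratory chain median 0.20 and 0.17. These shifts were thus not particular to the members. The median of the 12 genes encoded in mitochondria themselves ran the other way in the members, at −0.19, with 4 above and 8 below the median of all genes. Among them mt-Atp8 had −0.54 from 46.0 CPM in cKO and 66.9 CPM in WT, and mt-Nd3 had 0.19. All 12 together summed to 11986 CPM in cKO and 12588 CPM in WT. Of 42 ribosome biogenesis genes 33 were above and 9 below, with a median of 0.08. Mrto4, an assembly factor of the large subunit, had 215 CPM in cKO and 152 CPM in WT, a ratio of 0.50, Ebna1bp2 had 0.41, and Nhp2 of the pseudouridylation complex 0.39 from 453 and 346 CPM. Npm1 (nucleophosmin) had 3447 and 2817 CPM in cKO and WT, a ratio of 0.29. Nat10, a member of this list, was its lowest.

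Metallothioneins and stress lists differed among themselves. Mt1 had 633 CPM in cKO and 447 CPM in WT members, a ratio of 0.50 (0.48 to 0.53), and Mt2 had 262 and 246 CPM, a ratio of 0.09. The interferon list had the lowest median of the 23 lists, −0.37, with 2 of 22 measured genes above the median of all genes and 4 past −0.5, against a background of 3.13%. Trim30a had −1.02 from 9.77 CPM in cKO and 19.9 CPM in WT, the antiviral enzyme gene Rsad2 −0.99, the GTPase gene Igtp −0.90 and the interferon regulator Irf7 −0.67, while the immunoproteasome subunit Psmb8 had 0.38. The interferon median was −0.53 in the early, −0.24 in the middle and −0.21 in the late range. It was −0.49 in the cells with Gata2 and −0.36 in the Slc4a1-high cells. Of 15 immediate early genes, 5 were past −0.5, namely Atf3 (−1.09), Fosb (−0.75), Dusp1 (−0.65), Klf6 (−0.63) and Fos (−0.60, 24.1 and 36.7 CPM), with a list median of −0.12. Among 16 p53 targets the highest was the death effector Bax, with 133 CPM in cKO and 99.6 CPM in WT, a ratio of 0.41, and the lowest Sesn2, at −0.54, with a median of −0.15. The apoptosis list had a median of −0.12, with Bcl2l11 (BIM) lowest at −0.46. Glycolysis had 0.06, led by Ldha at 0.45, the ATF4 list 0.00 with the serine synthesis enzyme Phgdh at 0.43, cholesterol synthesis −0.15, and stem and early progenitor genes −0.21 with Angpt1 at −0.63.

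**Figure D4:**
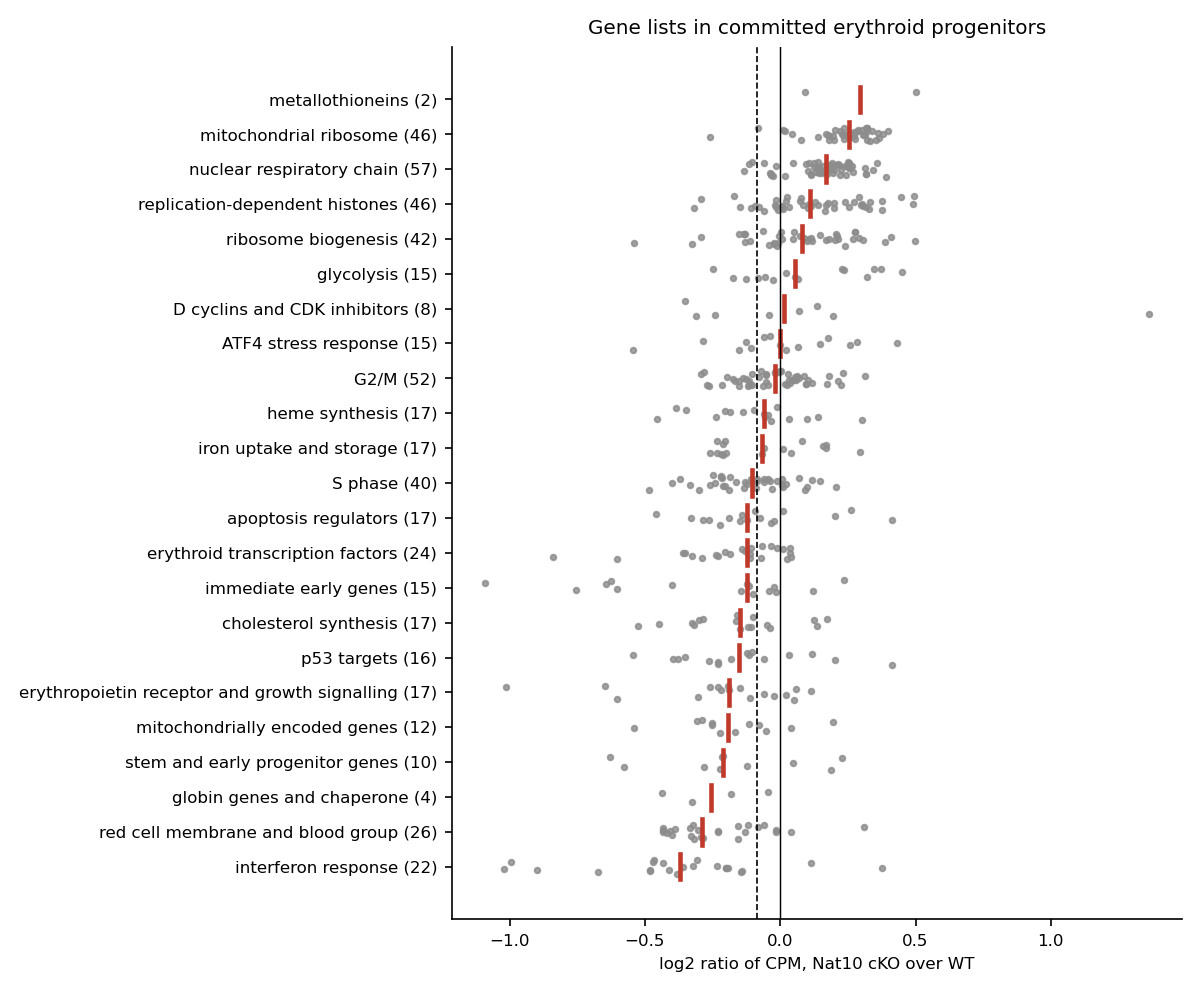
Log2 ratio of CPM, Nat10 cKO over WT, in committed progenitors for every measured member (grey points) of 23 gene lists, with the number measured in brackets, the list median (red bar), 0 (solid line) and the median of all 9220 genes (dashed line). Mitochondrial ribosome and respiratory chain medians lie right of both lines at 0.26 and 0.17, and the interferon and membrane medians lie left of both at −0.37 and −0.29.

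The ratio varied with the span of the gene. The shortest genes, under 3 kb, had a median of 0.12 (log2 ratio), those of 3 to 10 kb 0.07 and those of 10 to 30 kb −0.04. Genes of 30 to 100 kb had −0.15, those of 100 to 300 kb −0.23 and those over 300 kb −0.31, of which 23.03% were past −0.5. Median spans were 7900 bp in the mitochondrial ribosome list, 7206 bp in the respiratory chain list and 37731 bp in the membrane list. The interferon list (median ratio −0.37) had 12906 bp and the mitochondrially encoded list (−0.19) 870.5 bp. Across the genes with a known span (99.5% of 9220), span and ratio had a Spearman's rho of −0.47, a value over genes, which are not independent replicates. The same order of medians held in the cells with Gata2 (0.12 under 3 kb and −0.38 over 300 kb) and in the Slc4a1-high cells (0.14 and −0.28). Several genes named above are long. Sox6, Camk1d, Fry and Pcdh7 were over 300 kb, and Gab2, Pdgfd, Hipk2, F13a1, Ppm1e and Ikzf2 were among those of 100 to 300 kb. Of these, Pcdh7 (0.78), Ppm1e (0.68) and Ikzf2 (0.11) had ratios above 0 and the others below 0. The part of span in these ratios or in any list's median was not tested.

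Cells within a library varied most in a small set of genes. The Fano factor, the variance of thinned UMIs over cells divided by their mean, had a median of 1.16 in cKO and 1.17 in WT members over 1909 genes, and 111 genes were over 2 in both. Rn18s-rs5 led with 123 in cKO and 87.0 in WT, with a mean of 108 thinned UMIs per cKO cell and 209 per WT cell. The haemoglobin genes came next, with Hbb-bs at 46.9 and 22.3 and Hba-a1 at 19.6 and 18.01 in cKO and WT. H1f5 had 11.1 in cKO and 8.18 in WT, and the mitochondrial carrier gene Slc25a21 7.94 and 7.08. A single cKO cell held 2065 Hbb-bs UMIs, 4.47% of the members' total, against 460 in the highest WT cell, and its part in the Fano factor was not tested.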

How the data were processed

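Lineage-negative bone marrow of 1 Nat10 cKO and 1 WT library was analysed from the UMI counts per gene and barcode as deposited by the authors, a whole-number matrix of 56748 genes per library. Per the submitters' processing notes, the tools and build were Cell Ranger 7.1.0 and mm39. The cell calling step was not given in the sources used here. In all, the cKO matrix held 13479 barcodes and 271499717 UMIs, the WT matrix 15848 and 288303275. Groups came from the sample labels. Members, gene lists, markers and the naming rule were chosen with earlier results of these data known.

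UMIs were summed by gene symbol over members and scaled to CPM by total UMIs. Symbols on several rows (77) were summed. Log2 ratios have 0.5 added to each sum, and intervals are exact conditional binomial for ratios and exact binomial for shares. Genes averaging 5 CPM or more were compared. Named genes are the 12 highest and 12 lowest cKO-over-WT ratios and the 10 highest and lowest stage ratios at a mean of at least 20 CPM, without unnamed models, immunoglobulin, mitochondrial, haemoglobin, sex-linked and rule genes, plus the 2 ends of each list and a fixed set. A few genes that the rule names or the maturity index uses are not reported here. Other list members were named after their values were seen. Thinning drew 10000 UMIs per cell, so 0 members were lost. Ahsp was not matched in the files and is not in the maturity index. Doublets were called with Scrublet in scanpy 1.11.5 on barcodes of at least 1000 UMIs and kept, except in 1 alternative. It called 4.84% of cKO and 4.72% of WT barcodes. TMM factors came from edgeR 4.0.16 and were used for scaling only. Gene spans came from GENCODE annotation of build GRCm38 by gene ID, with no coordinates carried over. Ratios and intervals were tested on simulated counts with known folds.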

Additional observations from a re-analysis of the deposited data

Results flagged for a closer look

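Col1a1 had opposite ratios in neighbouring stages. Its log2 ratio of cKO over WT was −2.67 in committed progenitors and 1.39 in the cells with Gata2, and the difference between these was not tested. Within the committed progenitors it was −4.30 in the middle range of the maturity index and 0.77 and 0.65 in the early and late ranges. A single WT cell held 1508 of the 1664 WT UMIs, and without the highest cell of each library the ratio was 0.73, on the same side as in the cells with Gata2.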

How the results depend on the processing

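Each genotype had 1 library, so no replicate could be left out. No paired analysis was possible because the groups have 1 library each and no test was made. The cKO-over-WT ratio of the members' share of kept barcodes was between 1.64 and 1.79 under other depth, mitochondrial, doublet, Klf1, Car1+Ermap+Rhd and thinning settings, and 1.30 among barcodes with Klf1 only. Against 54 genes higher and 289 lower, TMM scaling gave 186 and 168, median-of-ratios scaling 175 and 173, no filter on low counts 5163 and 7024, and a mean of at least 20 CPM 22 and 91. Leaving out the cell with the most UMIs of each gene, an alternative chosen after seeing the data, gave 62 and 278. Of 37 genes higher than in the cells with Gata2, 19 were left at a mean of at least 20 CPM and 14 were found with the rule after thinning, and of 172 lower genes 54 were left at 20 CPM. Fewer genes are tested at 20 CPM; the other causes were not tested. Nat10 had a ratio of −0.43 under TMM and −0.43 under median-of-ratios scaling, against −0.54. The S phase median turned to 0.012 under TMM and 0.0063 under median-of-ratios scaling. Col1a1 turned to 0.97 under the rule after thinning and 0.73 without its highest cell. Over 148 named genes and 1776 alternative values, 1429 stayed within the counting interval. In all, 21 values had the opposite sign, 11 of them under the 2 scalings in genes with ratios no larger than 0.12, and 10 under other settings. Those 10 were both values of Col1a1, both of Kit (−0.09 and −0.03) and 1 each of Apoe (−0.0043), Ikzf2 (−0.0052), Lmo2 (−0.0089) and Ifitm1 (0.37) and, without called doublets or with the WT maturity mix, Tmsb4x (0.018) and Hba-a2 (0.068). Of 322 alternative values of 23 list medians, 20 had the opposite sign, 10 of them under the 2 scalings and 10 in the D cyclin and ATF4 lists, whose medians were 0.01 and −0.00066. F13a1 moved by over 1.5 times without called doublets (−0.52). Genes of a few CPM, such as Alas2 and Meis1, have wide intervals.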
